A study of Mus musculus with 7 samples.

Results

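S100a4, S100a6, S100a10, S100a11, S100a13, Anxa2, Anxa6, Lgals1, Lgals3 and Ahnak are genes of the S100, annexin and galectin families, with 1 scaffold gene, whose transcripts are often used to tell memory from naive T cells. They were chosen by name, as the rows of the deposited gene table with these symbols, and make up 10 of its 34745 rows. RNA sequencing had been carried out on naive CD4 T cells, helper T cells that have not met their antigen, taken from spleens of male C57BL/6 mice aged 8 weeks and kept free of specific pathogens. There were 3 wild-type (WT) libraries and 4 libraries from mice heterozygous for a gain-of-function allele of PIK3CD (GOF), the gene of p110delta, a catalytic subunit of PI3K that is abundant in leukocytes, with 1 mouse per library and littermates as controls. No mouse had been treated, and the cells were enriched by negative selection, which removes other cells with antibodies, without culture. The labels name neither the mutation nor the cells that carry it, and counts per gene do not show the allele.

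S100 proteins are small calcium-binding proteins that work as dimers and, when calcium binds, dock onto target proteins. Annexins bind the acidic phospholipids of membranes when calcium rises, and annexin A2 joins S100A10 in a complex at the inner face of the plasma membrane, to which the giant scaffold protein AHNAK also binds. Galectins are lectins that leave the cell by a route without a signal peptide and bind galactose-containing sugars on surface glycoproteins. In T cells, transcripts of many of these genes are low in naive cells and higher after activation and in memory cells.

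The promoters of 4 members that were higher in GOF cells are shown first, because these genes share that direction and because the stretches differ widely in composition. Their order among the mutant libraries was not shared, with Ahnak highest in GOF 2, where S100a4, S100a6 and Anxa2 were lowest. Windows from 250 bases before to 50 after the annotated start were available for 7 of the 10 members, from RefSeq (build GRCm38.p6, the assembly behind mm10). No window was available for S100a10, Anxa6 and Lgals1, so the motif counts below leave them out. The 250 bases before the start are printed 5′ to 3′, in lower case, with motif matches in capitals.
S100a4, chr3:90603520-90603769, plus strand: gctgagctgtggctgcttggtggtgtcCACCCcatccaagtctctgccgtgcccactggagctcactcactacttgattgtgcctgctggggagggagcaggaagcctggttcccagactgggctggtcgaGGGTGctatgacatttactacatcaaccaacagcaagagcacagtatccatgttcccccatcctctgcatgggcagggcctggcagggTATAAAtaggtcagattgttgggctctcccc
S100a6, chr3:90612644-90612893, plus strand: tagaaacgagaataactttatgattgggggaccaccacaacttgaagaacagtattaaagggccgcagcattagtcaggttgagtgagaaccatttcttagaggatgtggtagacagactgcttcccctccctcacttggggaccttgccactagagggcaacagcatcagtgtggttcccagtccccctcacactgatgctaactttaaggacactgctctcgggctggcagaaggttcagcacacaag
Anxa2, chr9:69453433-69453682, plus strand: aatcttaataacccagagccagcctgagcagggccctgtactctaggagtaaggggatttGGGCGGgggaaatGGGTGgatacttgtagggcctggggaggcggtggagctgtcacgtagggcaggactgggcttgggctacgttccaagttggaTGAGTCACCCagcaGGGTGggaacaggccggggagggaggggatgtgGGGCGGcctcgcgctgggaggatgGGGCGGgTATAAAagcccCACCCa
Ahnak, chr19:8989034-8989283, plus strand: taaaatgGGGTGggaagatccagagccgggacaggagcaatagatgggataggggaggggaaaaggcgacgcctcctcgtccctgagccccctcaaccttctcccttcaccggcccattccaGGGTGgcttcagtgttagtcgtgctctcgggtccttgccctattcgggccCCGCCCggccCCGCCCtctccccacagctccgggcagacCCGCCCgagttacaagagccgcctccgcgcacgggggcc
The motifs searched on both strands were TGANTCA (bound by AP-1 factors), GTAAACA (FOXO factors), CACCC (KLF factors), GGGCGG (SP factors) and TATAAA (the TATA box), and a match on the other strand reads as its reverse complement, such as GGGTG or CCGCCC. Of 32851 promoter windows of this length, 7.81% held TGANTCA, 3.65% GTAAACA, 57.5% CACCC, 35.7% GGGCGG and 13.6% TATAAA. Among the 7 member windows these motifs were found in 2, 0, 5, 4 and 2. The S100a4 window held TATAAA at position -31 from the start and 2 CACCC matches. The Anxa2 window held TATAAA at position -17, 1 TGANTCA match at position -95 whose last bases overlap a CACCC match, 4 CACCC matches in all and 3 GGGCGG matches. The Ahnak window held 4 GGGCGG matches, 1 of them after the start and so not printed, and 2 CACCC matches. None of the 5 motifs was found in the S100a6 window. The windows had a GC content of 55.3% for S100a4, 49.3% for S100a6, 63.7% for Anxa2 and 67.3% for Ahnak. A match describes letters only, and no factor binding was measured here.

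The libraries held between 14497957 and 16293539 counts. CD4 T cell transcripts were abundant in both groups, with Cd3e at 401 ± 3.41 CPM (counts per 1e+06 counts; SD, n = 3) in WT and 524 ± 19.3 (SD, n = 4) in GOF. Markers of several other cell types were higher in GOF libraries, and for myeloid cells, neutrophils, B cells and NK and CD8 T cells the sums were highest in GOF 1 and GOF 3. The 20 myeloid marker genes summed to between 72.1 and 119 CPM in WT and to 679, 234, 711 and 254 CPM in GOF 1 to 4, with 17 of the 20 higher in GOF. Of 11 tested neutrophil markers 9 were higher, and the list summed to between 1.60 and 11.2 CPM in WT and between 63.5 and 233 in GOF. S100a8 and Ngp had 0 counts in WT 2 and WT 3, S100a9 in WT 2 and Csf3r in WT 1. B cell markers were higher for 7 of 14 genes (385 to 534 CPM in WT, 818 to 1438 in GOF), NK and CD8 T cell markers for 10 of 12 (64.5 to 86.7 and 142 to 199) and red blood cell and platelet markers for 6 of 10 (18.1 to 32.1 and 27.5 to 91.2). Most of the B cell sum was Ighm, with a mean of 334 CPM in WT and 784 in GOF. Car1 and Gp9 were at 0 in all WT libraries. Regulatory T cell markers split into 7 higher and 5 lower of 12 (436 to 618 and 416 to 450). Foxp3 was higher (mean 30.6 CPM in WT and 72.0 in GOF), as was Ikzf2 (8.95 and 41.2). Tnfrsf18 (172 and 55.7) and Tnfrsf4 (109 and 37.0), the more abundant, were lower. Stroma markers split into 0 higher and 1 lower, Pecam1, of 4 tested (364 to 425 and 191 to 268). Pecam1 alone had a mean of 382 CPM in WT and 227 in GOF and made up most of the stroma sum. Col1a1, Col1a2 and Cdh5 each had means under 1 CPM in both groups. Of all 12668 tested genes, 16.8% were higher and 14.5% lower at an edgeR adjusted p under 0.05. Pik3cd mRNA itself was lower in GOF, with a log2 fold change of -0.80 (edgeR quasi-likelihood test, adjusted p = 0.0154).

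Of the 10 members, 6 were higher in GOF cells (S100a4, S100a6, Anxa2, Anxa6, Lgals1 and Ahnak), 1 was lower (S100a10) and 3 did not pass the test (S100a11, S100a13 and Lgals3). All 10 passed the low-count filter. Over all 12668 tested genes, 16.8% were higher, 14.5% were lower and 31.3% differed in either direction at an adjusted p under 0.05. Between WT and GOF, 7 members showed no overlap of library values, against 39.8% of all tested genes. The calls at an adjusted p under 0.05 numbered 2130 genes higher and 1838 lower, and with column totals in place of TMM scaling 2527 higher and 1428 lower. The median log2 fold change, GOF against WT, was 0.85 over the members and 0.01 over all tested genes. The members were therefore spread from a fall of less than 2-fold to rises of more than 8-fold, as the plot of their values by library shows. In RNA from a whole cell sample, a change in the share of cells that express a gene and a change in its RNA per cell cannot be told apart.

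**Figure D1:**
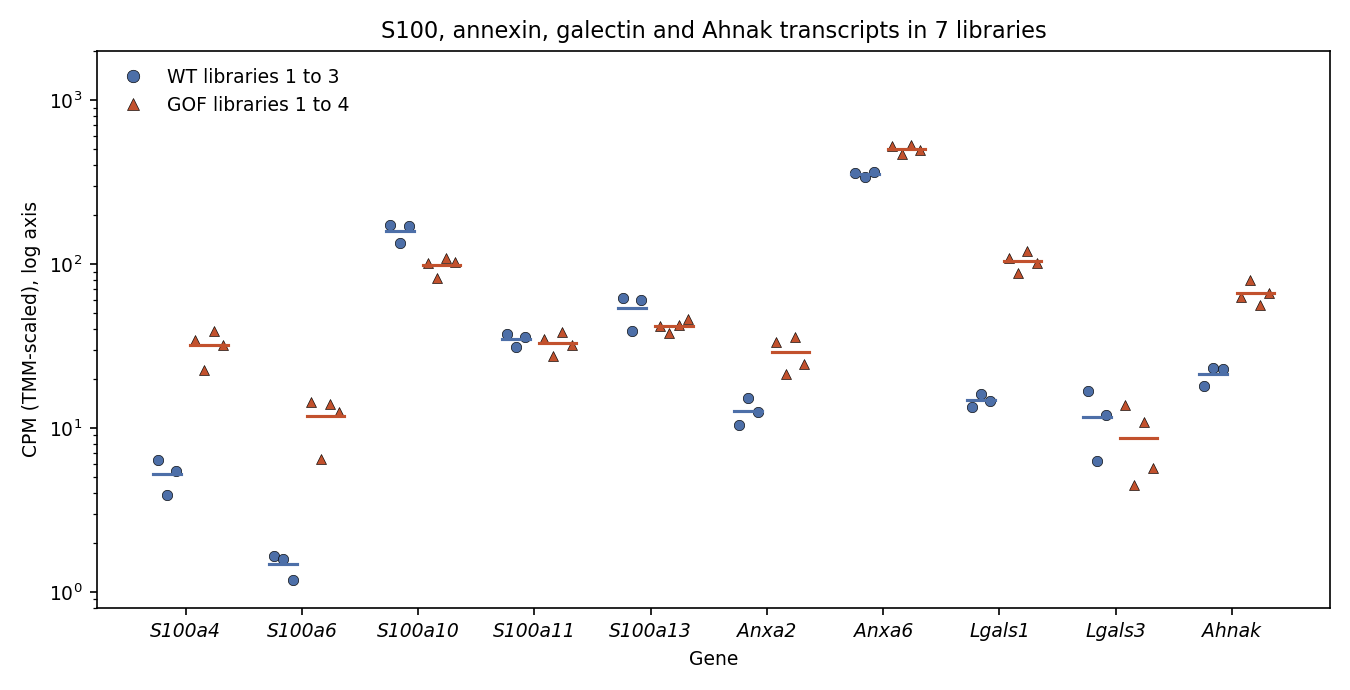
CPM (TMM-scaled, log axis) of the 10 members in each library, with WT libraries as circles, GOF libraries as triangles and a bar at each group mean. Lgals1 lies between 13.4 and 16.2 CPM in WT and between 88.6 and 120.2 CPM in GOF, while the groups of S100a11, S100a13 and Lgals3 overlap.

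S100a4 and S100a6 were the S100 members that rose. S100a4 (ENSMUSG00000001020, mm10 chromosome 3, 90603771 to 90606045) encodes a protein that binds non-muscle myosin and is linked to cell motility. It stood at 6.39, 3.93 and 5.50 CPM in WT 1 to 3 and at 34.4, 22.7, 39.3 and 32.2 CPM in GOF 1 to 4. Every GOF library lay above every WT library, with GOF 2 the lowest of the mutants and WT 2 the lowest of the controls. The means were 5.27 ± 1.25 CPM (SD, n = 3) and 32.2 ± 6.94 CPM (SD, n = 4), a 6.10-fold rise (log2 fold change 2.61, SE 0.24, edgeR adjusted p = 8.24e-05). S100a6 (ENSMUSG00000001025, chromosome 3, 90612882 to 90624181), which encodes calcyclin, was the scarcest member in WT cells by FPKM, the length-scaled unit used below. Its counts were 23, 23 and 17 in WT and 222, 102, 234 and 194 in GOF, or 1.65, 1.58 and 1.18 CPM against 14.4, 6.51, 14.1 and 12.5 CPM. The groups again did not overlap, and GOF 2 held fewer S100a6 counts than any other mutant library. Its mean CPM went from 1.47 ± 0.253 (SD, n = 3) to 11.9 ± 3.68 (SD, n = 4), the largest fold of the 10 members at 8.03 (log2 fold change 3.00, SE 0.33, edgeR adjusted p = 0.000240).

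S100a10 went the other way. It encodes the S100 protein that partners annexin A2 and, unlike its relatives, does not need calcium to bind its target. S100a10 (ENSMUSG00000041959, chromosome 3, 93555080 to 93564643) was measured at 173, 135 and 171 CPM in WT and at 101, 82.4, 109 and 103 CPM in GOF. All mutant libraries lay below all controls, and WT 2 and GOF 2 were the lowest of their groups. Mean CPM was 159.6 ± 21.6 (SD, n = 3) against 98.8 ± 11.4 (SD, n = 4), a 1.62-fold fall (log2 fold change -0.69, SE 0.12, edgeR adjusted p = 0.00326).

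S100a11 and S100a13 did not pass the test. S100a11 (chromosome 3, 93520488 to 93526287), a partner of annexin A1, was at 37.6, 31.3 and 36.1 CPM in WT and at 34.8, 27.3, 38.3 and 32.2 CPM in GOF. The groups overlapped throughout, and the log2 fold change of -0.08 had a 95% interval from -0.39 to 0.23 (edgeR adjusted p = 0.689). S100a13 (chromosome 3, 90514435 to 90524581), which takes part in the export of signal-less growth factors and cytokines, was at 61.8, 39.2 and 60.4 CPM in WT and at 41.9, 37.7, 42.3 and 46.5 CPM in GOF. Here WT 2 alone lay within the mutant range, and WT 1 and WT 3 lay above all mutants. The log2 fold change was -0.35 with an interval from -0.72 to 0.01 (edgeR adjusted p = 0.130). Without WT 2 it was -0.54 and passed the test (adjusted p = 0.00904), as it also did with all libraries once a trend on transcript length was removed.

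Both annexin members rose. Anxa2 (chromosome 9, 69453620 to 69491795) encodes the annexin that recruits S100A10 to membranes. It was at 10.4, 15.2 and 12.6 CPM in WT and at 33.6, 21.5, 36.0 and 24.7 CPM in GOF. GOF 1 and GOF 3 were the highest, and even the lowest mutant library, GOF 2, lay above all controls. Mean CPM rose 2.27-fold, with 12.7 ± 2.40 (SD, n = 3) in WT and 29.0 ± 6.99 (SD, n = 4) in GOF, and the log2 fold change was 1.18 (SE 0.22, edgeR adjusted p = 0.00380). Anxa6 (chromosome 11, 54979108 to 55033445), a large annexin linked to membrane traffic and cholesterol handling, was already abundant in WT cells. It was at 359, 342 and 364 CPM in WT and at 525, 467, 534 and 497 CPM in GOF, with little spread in either group. Its rise was small, 1.42-fold, but well outside the spread between mice (mean CPM 355 ± 11.8, SD, n = 3, and 506 ± 30.2, SD, n = 4, with a log2 fold change of 0.51, SE 0.08, edgeR adjusted p = 0.00144).

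Ahnak (chromosome 19, 8989284 to 9076919), the scaffold that binds the annexin A2 and S100A10 complex and supports calcium entry in T cells, rose 3.09-fold. It was at 18.1, 23.2 and 22.9 CPM in WT and at 62.7, 79.7, 56.3 and 66.4 CPM in GOF. The mutants lay above all controls, and the order among them was the reverse of that of Anxa2, with GOF 2 highest and GOF 3 lowest. The means were 21.4 ± 2.86 CPM (SD, n = 3) and 66.3 ± 9.87 CPM (SD, n = 4), with a log2 fold change of 1.63 (SE 0.15, edgeR adjusted p = 8.41e-05). So within the trio of Anxa2, S100a10 and Ahnak, the transcripts of the annexin and the scaffold rose while that of the S100 subunit fell.

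The galectins split. Lgals1 (ENSMUSG00000068220, chromosome 15, 78926725 to 78930465) encodes galectin-1, a dimeric lectin that restrains T cell responses. It was at 13.4, 16.2 and 14.6 CPM in WT and at 109, 88.6, 120.2 and 101 CPM in GOF. The lowest mutant library lay far above the highest control, and each group was tight. This was the smallest p of the members: mean CPM rose 7.11-fold, with 14.7 ± 1.41 (SD, n = 3) in WT and 105 ± 13.3 (SD, n = 4) in GOF (log2 fold change 2.83, SE 0.14, edgeR adjusted p = 3.05e-06). Lgals3 (chromosome 14, 47367751 to 47386160) encodes galectin-3, which oligomerises through its tail and is also a surface antigen of macrophages, Mac-2. It was at 16.8, 6.27 and 11.98 CPM in WT and at 13.9, 4.47, 10.8 and 5.72 CPM in GOF. High and low libraries occurred in both groups, with WT 1, WT 3, GOF 1 and GOF 3 high and WT 2, GOF 2 and GOF 4 low. The log2 fold change of -0.42 had an interval from -1.40 to 0.56 (edgeR adjusted p = 0.498), so a change of 2-fold in the downward direction lay within it.

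FPKM values, which scale fragments by gene length and library size, allow levels to be compared between genes. In WT cells the order of mean FPKM was Anxa6 at 113, S100a10 at 95.5, S100a13 at 73.0, S100a11 at 66.4, Lgals1 at 17.8, S100a4 at 6.13, Lgals3 at 4.06, Anxa2 at 3.02, Ahnak at 1.12 and S100a6 at 0.739. In GOF cells it was Anxa6 at 170.1, Lgals1 at 134, S100a11 at 66.3, S100a10 at 62.3, S100a13 at 60.2, S100a4 at 39.4, Anxa2 at 7.24, S100a6 at 6.29, Ahnak at 3.65 and Lgals3 at 3.20. Lgals1 thus moved from a level far below S100a11 to one above it in every GOF library. Library ranges overlapped in WT between S100a10 and S100a13, S100a13 and S100a11, S100a4 and Lgals3, and Lgals3 and Anxa2. In GOF they overlapped among S100a11, S100a10 and S100a13, and between Anxa2 and S100a6, S100a6 and Ahnak, S100a6 and Lgals3, and Ahnak and Lgals3. Within each WT library, S100a10 exceeded S100a13 and S100a4 exceeded Lgals3, and within each GOF library S100a6 exceeded Lgals3. The order of the other pairs differed between libraries. The FPKM of a gene rests on the single length used for it, which was 511 bases for S100a11 and 18543 for Ahnak.

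Of the other S100 genes 12 were in the table, 3 were tested, and 2 of them were higher (66.7%, against 16.8% of all tested genes). S100a8 and S100a9 encode both subunits of calprotectin, the main calcium-binding protein of neutrophils, and both also stand in the neutrophil marker list. S100a8 had 20, 0 and 0 counts in WT and 313, 108, 389 and 101 in GOF (log2 fold change 4.90, SE 1.01, edgeR adjusted p = 0.00622), and without GOF 1 and GOF 3 the log2 fold change was 3.79 (SE 1.12, adjusted p = 0.0581), with fewer libraries in the fit. S100a9 had 43, 0 and 3 counts in WT and 1163, 257, 1177 and 415 in GOF (log2 fold change 5.44, SE 0.99, edgeR adjusted p = 0.00343). Both were highest in GOF 1 and GOF 3, the libraries with the highest neutrophil and myeloid sums given above. S100a4 was at 22.7 and 32.2 CPM in GOF 2 and GOF 4 against 34.4 and 39.3 in GOF 1 and GOF 3, and S100a6 at 6.51 and 12.5 against 14.4 and 14.1. The neutrophil marker sums of GOF 2 and GOF 4, 63.5 and 79.2 CPM, also lay above those of all controls (at most 11.2). The part of other cells in the rise of S100a4 and S100a6 was not tested. S100a1 was not called, and the remaining 9 genes did not pass the filter, 4 of them at 0 in every library.

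Along chromosome 3 the S100 genes lie in a cluster, and S100a11 and S100a10 in a second stretch further on. In deposited order the first cluster ran S100a1, S100a13, S100a14, S100a16, S100a3, S100a2, S100a4, S100a5, S100a6, S100a7a, S100a8 and S100a9. S100a5, between the 2 members that rose, had 0 counts in every library, as did S100a7a on the other side of S100a6. S100a14, beside S100a13, had at most 8 counts in a library, and S100a2, beside S100a4, at most 4. In the second stretch, S100a11 and S100a10 are next to each other, and the first was not called while the second fell. Tchhl1, before S100a11, had 0 counts, and Gm5541, after S100a10, had 0, 1 and 0 counts in WT and 7, 6, 10 and 11 in GOF and was not tested. Of the tested genes in the first cluster, S100a4, S100a6, S100a8 and S100a9 rose, and S100a1 and S100a13 did not pass the test.

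**Figure D2:**
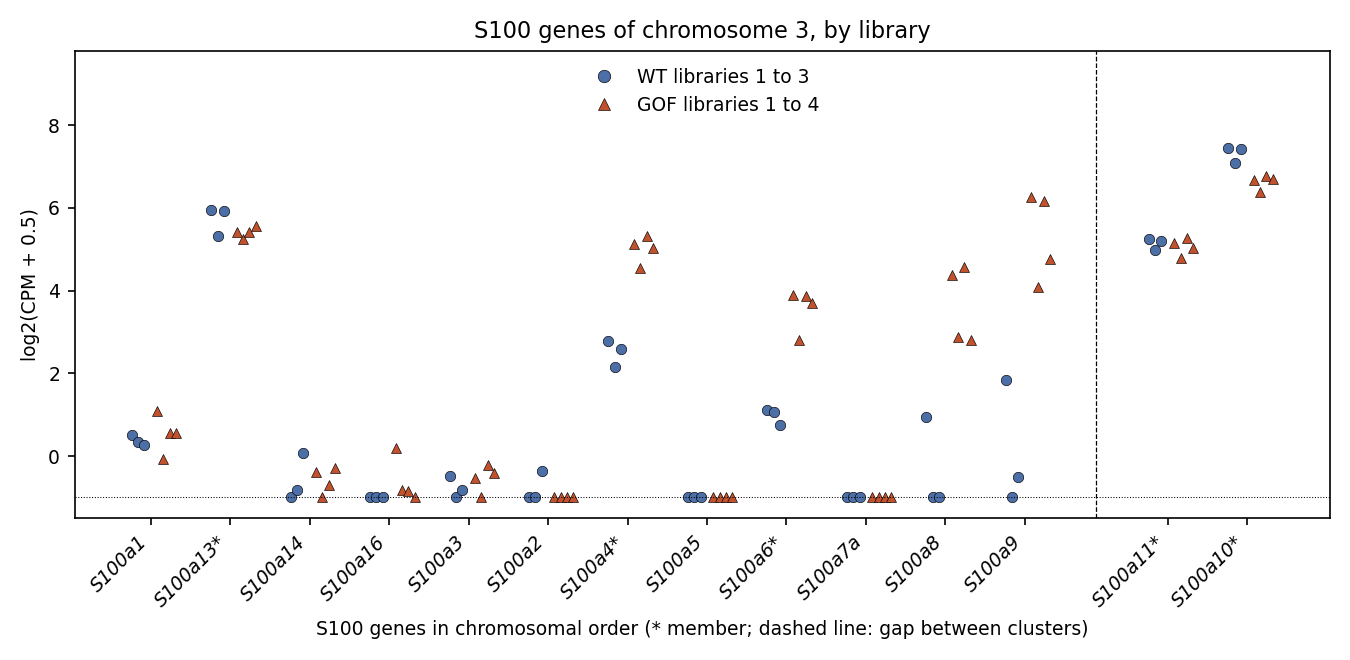
Level of each S100 gene of chromosome 3, as log2(CPM + 0.5), in chromosomal order, with WT libraries as circles, GOF libraries as triangles and the value of 0 counts as a dotted line. S100a4 and S100a6 are higher in every GOF library, S100a5 between them is at 0 counts, and S100a10 is lower.

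Of the other annexins 7 were tested, with 2 higher and 1 lower (28.6% and 14.3%, against 16.8% and 14.5% of all tested genes). Anxa1, which encodes an annexin that dampens inflammation, was at 1.44, 0.344 and 1.04 CPM in WT and at 8.79, 3.00, 11.4 and 3.79 in GOF, and its log2 fold change was 2.84 (SE 0.62, edgeR adjusted p = 0.00815). Its mutant values were highest in GOF 1 and GOF 3, and without those libraries the log2 fold change was 1.83 (adjusted p = 0.0715). Anxa5, whose protein binds phosphatidylserine, rose with a log2 fold change of 0.60 (SE 0.10, edgeR adjusted p = 0.00272). Anxa7, which encodes synexin, fell with a log2 fold change of -0.61 (SE 0.09, edgeR adjusted p = 0.00126). Among the other galectins 3 were tested, with 1 higher and 0 lower (33.3% and 0%). The 1 that rose was Lgals9, which encodes a tandem-repeat galectin. It had a mean of 124 CPM in WT and rose to 217 in GOF, with a log2 fold change of 0.81 (SE 0.09, edgeR adjusted p = 0.000190). Lgals4 and Lgals8 were not called. Lgals7 had 0 counts in WT and 9, 11, 11 and 6 in GOF and did not pass the low-count filter.

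**Figure D3:**
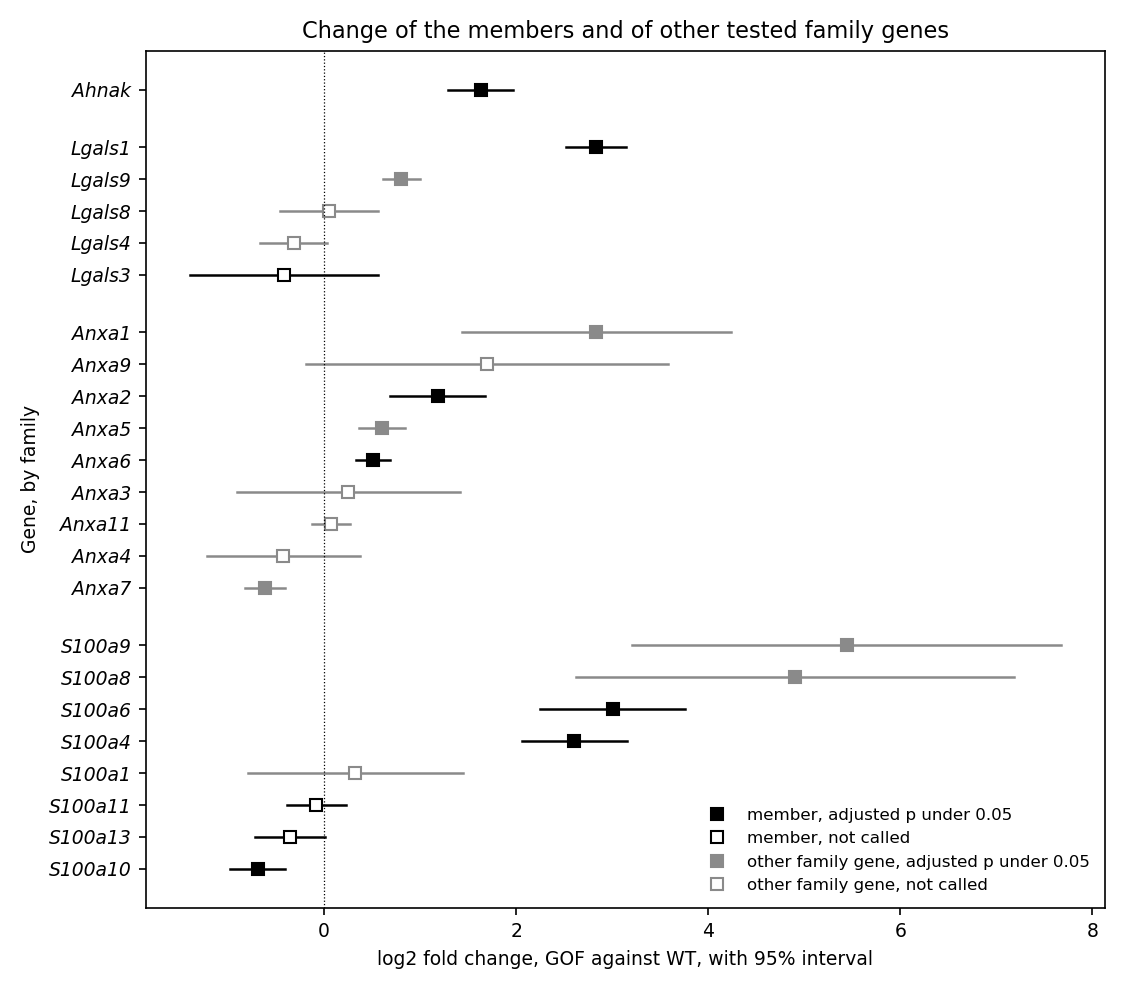
Log2 fold change, GOF against WT, with its 95% interval for the 10 members (black) and for the other tested genes of the families (grey), filled where the adjusted p was under 0.05. The S100 and annexin families hold both rises and falls, from S100a10 at -0.69 and Anxa7 at -0.61 to S100a9 at 5.44 and Anxa1 at 2.84.

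Of 13 tested genes for AHNAK relatives and plasma membrane repair, 1 rose and 2 fell (7.69% and 15.4%, against 16.8% and 14.5% of all tested genes), with a median log2 fold change of -0.11. Esyt1, which tethers the endoplasmic reticulum to the plasma membrane, was at a mean of 406 CPM in WT and 697 in GOF, a rise of 0.78 on the log2 scale (edgeR adjusted p = 0.000189). Snap23 and Vamp3, SNARE proteins of membrane fusion, fell, Snap23 by 0.95 on the log2 scale (edgeR adjusted p = 0.000373) and Vamp3 by 0.68 (adjusted p = 0.00240). Of 30 memory T cell genes of other families, 22 were higher and 3 lower (73.3% and 10%, against the same 16.8% and 14.5%), with a median log2 fold change of 1.63 against 0.01 over all tested genes. Among them were Maf, a transcription factor of helper subsets (4.93 to 49.1 CPM), Itgb2, the beta chain of LFA-1 (242 to 647 CPM), Ly6c1 (29.6 to 114 CPM) and the early activation marker Cd69 (44.9 to 385 CPM). The falls were those of Id2, Prdm1 and Plp2, with log2 fold changes of -1.13, -1.18 and -2.13, named after their values were seen. Of 24 naive T cell genes, 6 rose and 10 fell (25% and 41.7%, median log2 fold change -0.29), with Trib2 and the egress receptor S1pr1 falling by 1.39 and 1.02 on the log2 scale, and Treml2 and Nsg2 at 1.55 and 1.18. Of 10 CD4 T cell markers 7 rose and 0 fell (70% and 0%, against 16.8% and 14.5% of all tested genes).

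Because other-cell markers were uneven among the mutants, the fit was repeated without some libraries, a split chosen after the data were seen. Without GOF 1 and GOF 3, the 6 rises and the fall of S100a10 kept their calls. The log2 fold changes were 2.37 for S100a4, 2.67 for S100a6, 0.85 for Anxa2 (edgeR adjusted p = 0.0321), 0.43 for Anxa6, 2.68 for Lgals1, 1.76 for Ahnak and -0.79 for S100a10. With GOF 1 and GOF 3 kept and GOF 2 and GOF 4 left out they were 2.82, 3.28, 1.46, 0.59, 2.97, 1.49 and -0.59 in the same order. The estimates for S100a4, S100a6, Anxa2, Anxa6 and Lgals1 were thus smaller without GOF 1 and GOF 3, that of Ahnak was larger, and S100a10 fell further. S100a4 went from 2.61 (SE 0.24) with all libraries to 2.37 (SE 0.27), and Anxa2 from 1.18 (SE 0.22) to 0.85 (SE 0.21). GOF 2, which stays in that fit, was the lowest mutant library for 9 of the 10 members. Lgals3 went from -0.42 to -1.21 without GOF 1 and GOF 3 (edgeR adjusted p = 0.0960) and to 0.09 without GOF 2 and GOF 4. Myeloid sums fell from 679 and 711 CPM in GOF 1 and GOF 3 to 234 and 254 in the other mutants, which still lay above all controls, so the part of these cells in the members' levels was not tested.

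Other measures of whole libraries differed too. Mitochondrially encoded genes took 5.12%, 4.33% and 4.89% of counts in WT and 6.71%, 5.78%, 6.67% and 6.27% in GOF, with no overlap (p = 0.0571 in a 2-sided exact permutation test, which cannot go lower with 3 against 4). Genes with a count above 0 numbered 14042 to 15264 in WT and 15350 to 16030 in GOF, also without overlap. Both moved with the genotype, as the called members did, and their part in the members' changes was not tested. Genes under 1000 bases took 7.25%, 5.82% and 6.58% of counts in WT and 7.77%, 6.58%, 8.17% and 7.56% in GOF (exact permutation test, 2-sided, p = 0.114), and here the groups overlapped. WT 2 and GOF 2 were the lowest of their groups. They were also the lowest for 6 and 9 of the 10 members, and GOF 2 was highest for Ahnak, the longest. The 9 members lowest in GOF 2 included genes above 1000 bases, such as Anxa2 (4087) and Anxa6 (3041). The part of length in these orders was not tested. With the trend of each library on length removed, S100a11 and S100a13 were called lower, the former at -0.38 on the log2 scale (edgeR adjusted p = 0.0202) and the latter at -0.57 (adjusted p = 0.00891). The other members kept their calls, at 2.43 for S100a4, 2.93 for S100a6, -0.76 for S100a10, 1.17 for Anxa2, 0.47 for Anxa6, 2.62 for Lgals1 and 1.76 for Ahnak, and Lgals3 stayed uncalled.

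**Figure D4:**
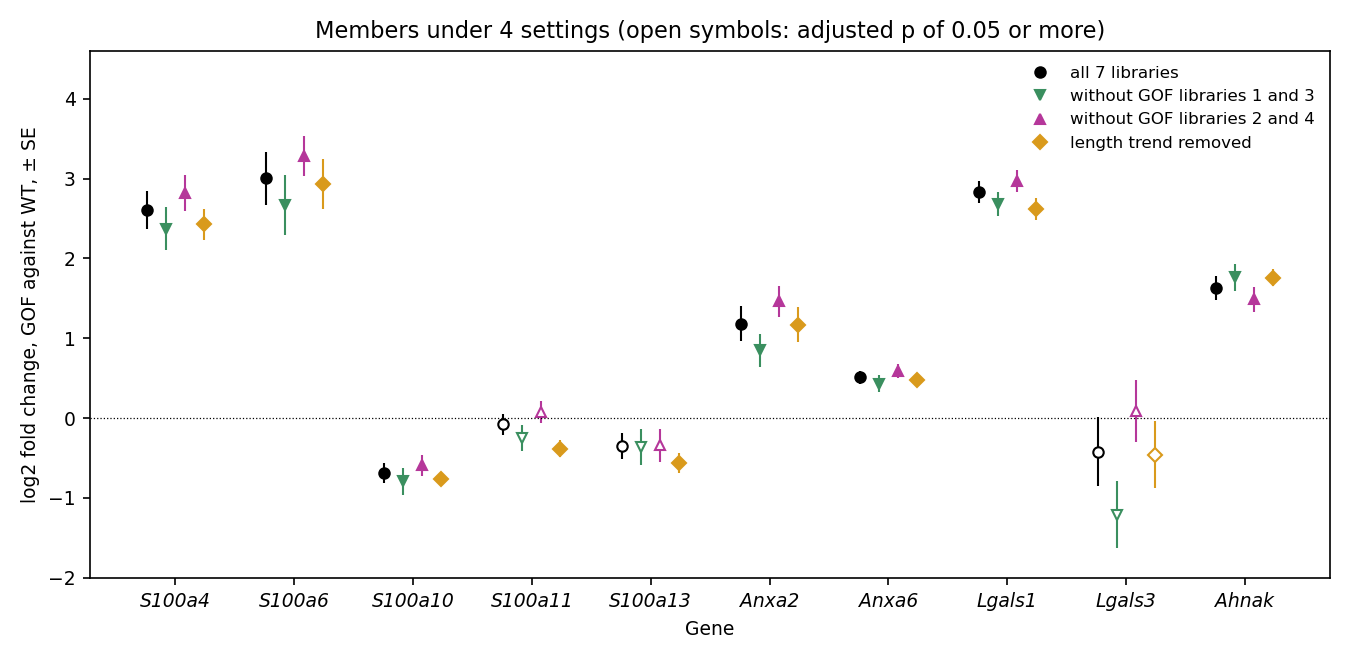
Log2 fold change, GOF against WT, with its SE for each member with all 7 libraries, without GOF 1 and GOF 3, without GOF 2 and GOF 4, and with the length trend removed, open where the adjusted p was 0.05 or more. The 6 rises and the fall of S100a10 are filled in all 4 settings, while Lgals3 runs from -1.21 to 0.09.

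For each member, the protein-coding gene with the most similar pattern of log2(CPM + 0.5) over the 7 libraries was found among genes with a mean of at least 10 CPM. For the members that rose these were Bak1 for S100a4 (Pearson r = 0.999), Ankmy2 for S100a6 (0.998), Nmnat3 for Anxa2 (0.994), Naif1 for Anxa6 (0.999), Cd5 for Lgals1 (0.999) and Gm4955 for Ahnak (0.995). S100a10 was closest to Cnp (0.996), S100a11 to Anp32b (0.995), S100a13 to Ap1m1 (0.996) and Lgals3 to Arl2bp (0.988). These r values describe 7 points that share their libraries and fall into 2 genotypes, and between 347 and 714 genes reached an r of 0.9 with each member whose call passed. For S100a11, S100a13 and Lgals3, whose groups overlapped, only 54, 121 and 32 genes did. Cd5, a T cell surface receptor that dampens receptor signals, rose from 251 to 721 CPM beside Lgals1.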

How the data were processed

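RNA of 7 libraries was measured, 3 WT and 4 GOF, grouped by sample title. The deposited table holds raw counts and FPKM per gene made by the authors, and the FPKM is the count over a fixed gene length and the library total. Per the submitters' processing notes, HISAT2 2.0.4, Cufflinks 2.1.1 and Cuffdiff were used with build mm10. How reads were counted, and with which strand setting, is not given in the sources used here. Rows overlapping S100a4 and Anxa2 (Gm42674 and Gm16144) and the S100a11 and Lgals1 pseudogene rows held at most 3 counts in a library. Counts were tested with edgeR 4.0.16 (R 4.3.3; limma 3.58.1; quasi-likelihood, filterByExpr, TMM) over all 12668 tested genes, with Benjamini-Hochberg adjustment and a threshold of 0.05. The script was tested on simulated data. CPM use TMM-scaled totals, and values are mean ± SD. Each library is 1 mouse.

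The members and the 14 gene lists (other S100 genes, annexins and galectins, AHNAK and membrane repair partners, memory and naive T cell genes, CD4 T cell markers, and markers of myeloid cells, neutrophils, B cells, NK and CD8 T cells, regulatory T cells, stroma, and red blood cells with platelets) were chosen with earlier results of these data known. Itgam, whose symbol occurs more than once, was left out. Named genes were Pik3cd, all members, the called genes of the other family lists, up to 4 of each further list by smallest p, the most similar gene of each member, the neighbours of S100 members and the defining markers. Alternatives were DESeq2 1.42.0, other scalings, no filter, limma on log2(FPKM + 1) and log2(FPKM + 0.1), leaving out each library, a block on replicate number, and, added after the data were seen, leaving out GOF 1 and 3 or GOF 2 and 4 and removing a length trend.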

Additional observations from a re-analysis of the deposited data

How the results depend on the processing

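Over 17 alternatives, the 6 rises and the fall of S100a10 kept direction and call in all of them, and 164 of 170 member values kept both direction and side of the threshold. The number of members lower ran from 1 to 2 when 1 library was left out (2 without WT 2, when S100a13 was called) and was 3 with the length trend removed. The sign of S100a11 turned without GOF 2 (leave-one-out range -0.16 to 0.0052) and without GOF 2 and GOF 4 (0.0736), and that of Lgals3 turned in the latter (0.0939), and the cause was not tested. Without GOF 1 and GOF 3, 1074 of all tested genes were higher and 1050 lower, with fewer samples, against 2130 and 1838. In that setting the number of genes higher went from 17 to 11 for myeloid, from 7 to 3 for B cell and from 6 to 2 for red blood cell and platelet markers, and from 2 to 1 for the other S100 genes and for the other annexins, with 2 annexins lower in place of 1. B cell markers had 13 higher without WT 2, red blood cell and platelet markers ran down to 2 higher when 1 library was left out or with the block, and naive genes had 6 lower in place of 10 without GOF 2 and GOF 4. The other galectins had 2 higher without the low-count filter or without any 1 WT library, and the membrane repair partners 2 higher without the filter or without GOF 2 and GOF 4. With a replicate block on numbers 1 to 3, which leaves out GOF 4, 6 members were higher and 1 was lower, and 1646 of all tested genes were higher and 1549 lower. The labels do not say whether the numbers pair the mice, and correlations this weak cannot decide it. Deviations from the group means correlated at 0.0256, 0.147 and -0.0406 for the same numbers. For different numbers the highest value was 0.129, for WT 1 with GOF 3. Low counts limit S100a6 in WT, at 17 to 23 per library.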

Other observations

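The following ratios and sums of FPKM were chosen after the values were seen. The 5 S100 members summed to 242 ± 37.9 FPKM (SD, n = 3) in WT and 234 ± 29.5 (SD, n = 4) in GOF (exact permutation test, 2-sided, p = 0.629), while the share from S100a4 and S100a6 was 2.83% ± 0.230 and 19.3% ± 2.19. By library that share was 3.09%, 2.70% and 2.69% in WT and 20.5%, 16.3%, 21.3% and 19.1% in GOF. These 2 genes were picked because they had risen, so the share describes that rise in another unit and no test of it is given.

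The ratio of S100a10 to Anxa2, the transcripts of the partners of 1 complex, was 41.9, 22.3 and 34.2 in WT and 7.56, 9.69, 7.61 and 10.5 in GOF. The ratio of Lgals1 to Lgals3 was 2.77, 8.997 and 4.25 in WT and 27.3, 69.0, 38.7 and 61.7 in GOF. The ratio of Anxa6 to Anxa2 was 46.3, 30.2 and 38.8 in WT and 21.0, 29.3, 19.9 and 27.1 in GOF. For each of the 3 ratios the groups did not overlap, and no test is given because the ratios were chosen on these values. Among the mutants, Lgals1 over Lgals3 was lowest in GOF 1 and GOF 3, the libraries with the highest myeloid marker sums, and their part in it was not tested.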
